A study of Homo sapiens with 6 samples.

Results

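The genes examined were 10 genes that act downstream of the kinase AKT: the forkhead transcription factors FOXO1, FOXO3 and FOXO4, the kinase MTOR, its partner proteins RPTOR and RICTOR, the TSC1 and TSC2 brake, the GTPase RHEB and the translation repressor EIF4EBP1. A probe was taken as theirs when it was no control probe and its RefSeq accession belonged to 1 of these genes, whatever its signal. In all, 14 probes of the array measured these 10 genes, out of 19740 genes that could be named. For 13 of the 14 probes the signal was high enough to be tested, and every one of the 10 genes had at least 1 tested probe.

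SU-DHL-2 is an established cell line of diffuse large B-cell lymphoma (DLBCL). Cells of this line were kept for 72 h with 200 pg/ml of the cytokine IL-17A or, as controls, without it, with no other agent or genetic change named for either group. Each group held 3 samples, and the total RNA of each was hybridized in 1 colour to a whole-genome array. All samples came from a single cell line, and nothing in the labels says that they were separate cultures, so the p-values measure the spread between these samples, which may be technical.

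AKT, which the lipid kinase PI3K switches on, controls the FOXO factors and the mTOR complexes by phosphorylation. Phosphorylated FOXO factors leave the nucleus and their target genes, many of which arrest the cell cycle or promote cell death, are no longer driven. The complex of TSC1 and TSC2 keeps RHEB inactive, and once AKT phosphorylates TSC2, RHEB activates mTOR complex 1 (mTORC1, with RPTOR), which phosphorylates EIF4EBP1 and releases translation, while mTOR complex 2 (mTORC2, with RICTOR) phosphorylates AKT itself. An array measures the mRNA of these genes, and neither phosphorylation nor the place of a protein in the cell.

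The arrays were much alike, with correlations of 0.994 to 0.997 across tested probes within a group and 0.993 to 0.995 between groups. Signals are given here as log2 intensities after quantile normalization, and the lowest signal well above background lay at 1.86 to 2.11 on that scale. The 3 controls and IL-17A replicate 1 were read in a single scan, and the other two IL-17A arrays in a separate one. For this reason the difference between IL-17A replicate 1 and the controls, all of 1 scan, stands beside the difference between the groups for the brightest probe of each of the 10 genes. This difference rests on 1 IL-17A array, so the spread with IL-17A does not enter it. For other genes of the pathway it is given where it differs by more than 1.5 times, and for the genes described array by array. All 10 B-cell markers were well above background on every array, and their summed signal was 48790 to 51400 with IL-17A and 48500 to 49340 without it. All 8 T and NK cell markers were also well above background, at a summed signal of 1065 to 1165 with IL-17A and 1241 to 1434 without it. Most of this signal was that of CD4, and without CD4 the sum was 212 to 232.8 with IL-17A and 220.4 to 232.8 without it, which overlap. By sign, 4 of the 8 markers were higher and 4 lower, and at an unadjusted p under 0.05 in limma, which 31.8% of all named genes reached, 1 was higher and 3 were lower with IL-17A. Of the 5 monocyte and 7 mesenchymal markers with a probe, 4 and 5 were above background on no array. No cell other than SU-DHL-2 is named for these samples. The part of the T and NK cell markers in the differences below was not tested, and a bulk array does not tell which cells a signal comes from.

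At the brightest probe of each gene, the mRNAs of FOXO3, FOXO4, RICTOR and TSC1 were higher and that of TSC2 was lower with IL-17A. The dimmer TSC2 probe went the other way, and the mean over both TSC2 probes gave a log2 fold change of 0.0039. Each of the 5 differences was less than 1.2-fold and had an unadjusted p under 0.05 in limma. The other 5 genes were not separated from the controls by the test, and none of the 10 genes had an adjusted p under 0.05. Over all 14747 named genes with a tested probe, the unadjusted p was under 0.05 in 31.8%, in 16.9% as higher and in 14.8% as lower. The adjusted p was under 0.05 in 7.85% of them. This last share fell whichever array was left out. Over all tested probes it was 7.59%, but 0.00835% to 4.11% with an array left out and 0.0167% with the replicate number as a block. The unadjusted p was under 0.05 in 31.3% of them, in 21.1% to 31.3% with an array left out and in 26.6% with that block. The cause of the fall was not tested. With the scan as a block, FOXO3 alone of the 5 genes kept an unadjusted p under 0.05 in limma, which 23.3% of all tested probes had. The groups did not overlap for 6 of the 10 genes, 5 of them higher and 1 lower with IL-17A, against 40.7% of all named genes, 21.4% as higher and 19.3% as lower. No member reached a fold change of 1.5, which together with an unadjusted p under 0.05 was reached by 1.92% of all named genes and by 2.18% of all tested probes. The median log2 fold change of the 10 genes was 0.05, and the median of its absolute value was 0.15. Over all named genes these medians were 0.0032 and 0.11.

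**Figure D1:**
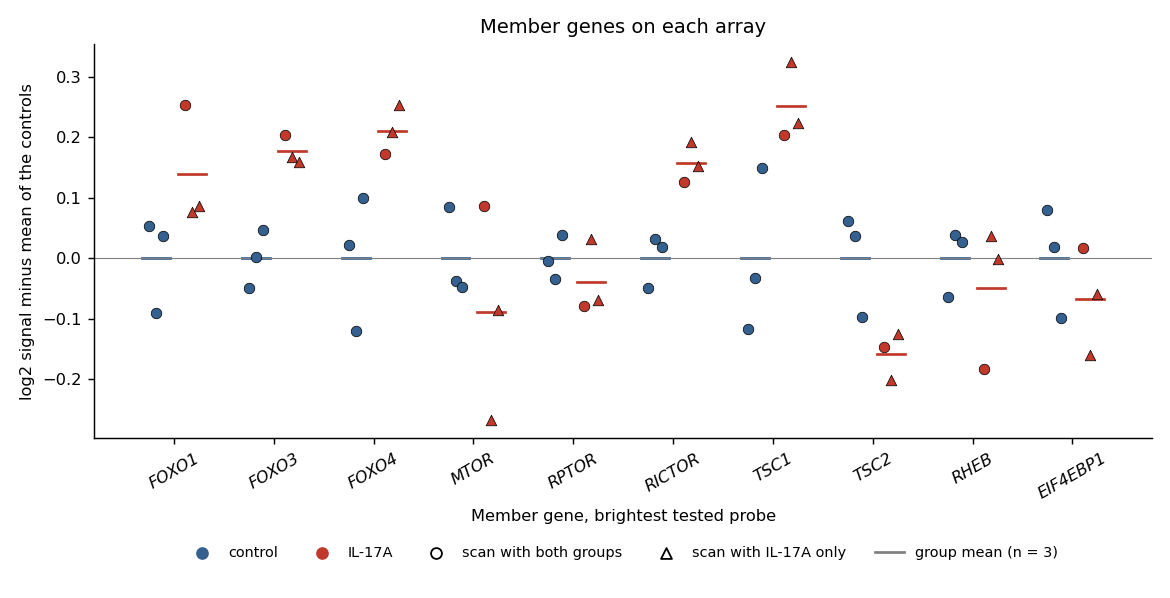
The vertical axis gives the log2 signal of each array minus the mean of the 3 controls for the brightest tested probe of the 10 genes, with the group means as bars, circles for the scan that held both groups and triangles for the scan with IL-17A alone. All IL-17A points of FOXO1, FOXO3, FOXO4, RICTOR and TSC1 lie above all control points of the gene, those of TSC2 lie below them, and those of MTOR, RPTOR, RHEB and EIF4EBP1 mix with the controls.

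FOXO3, a transcription factor that drives genes of cell death and quiescence, gave the lowest p of the 10 genes. Its brightest probe read 10.78, 10.75 and 10.74 on the IL-17A arrays and 10.53, 10.58 and 10.63 on the control arrays. Every IL-17A array was above every control array, and the IL-17A values differed from each other by less than the controls did. The log2 fold change was 0.18 (95% confidence interval 0.07 to 0.28), a 1.13-fold difference, with an unadjusted p of 0.00597 and an adjusted p of 0.0592 in limma. Of all tested probes, 35.0% had a larger absolute log2 fold change. Within the scan that held both groups the log2 difference was 0.20.

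FOXO3 had 2 further probes, and both pointed the same way. The second read 10.59, 10.65 and 10.59 with IL-17A and 10.42, 10.47 and 10.55 without it. Here, too, the groups did not overlap, at a log2 fold change of 0.13 (adjusted p = 0.148 in limma). The third and dimmest probe read 6.49, 6.33 and 6.48 with IL-17A and 6.29, 6.34 and 6.15 without it, so that IL-17A replicate 2 fell among the controls. Its log2 fold change was 0.17 (adjusted p = 0.178 in limma).

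FOXO4, a FOXO factor whose gene lies on the X chromosome, read 5.66, 5.70 and 5.74 with IL-17A and 5.51, 5.37 and 5.59 in the controls. The groups did not overlap, and control replicate 2 was the lowest of the 6 arrays. The gene gave a log2 fold change of 0.21 (95% confidence interval 0.05 to 0.38), a 1.16-fold difference, with an unadjusted p of 0.0206 and an adjusted p of 0.0997 in limma. Within the scan that held both groups the log2 difference was 0.17. The second FOXO4 probe was the 1 probe of the 14 that could not be tested, since it was detected on none of the IL-17A arrays and on 1 control array. It read 2.22, 2.04 and 2.11 with IL-17A and 0.42, 1.91 and 2.23 without it, which is at or near the background.

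FOXO1, the FOXO factor best known from B-cell development and from mutations in DLBCL, read 9.182, 9.005 and 9.013 with IL-17A and 8.981, 8.838 and 8.965 without it. IL-17A replicate 1 was the highest array, and IL-17A replicates 2 and 3 lay just above control replicate 1. Here the log2 fold change was 0.14 (95% confidence interval -0.03 to 0.31), with an unadjusted p of 0.0953 and an adjusted p of 0.231 in limma. Within the scan that held both groups the log2 difference was 0.25, and without IL-17A replicate 1 it was 0.08. In FOXO1, the gap between IL-17A replicate 1 and the other two IL-17A arrays, of the other scan, was as large as the difference between the groups.

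TSC1, the scaffold subunit that stabilizes TSC2, had the largest log2 fold change among the 10 genes. Its probe read 11.02, 11.14 and 11.04 with IL-17A and 10.70, 10.78 and 10.96 without it. The groups did not overlap, and control replicate 3 came closest to the IL-17A arrays. The log2 fold change was 0.25 (95% confidence interval 0.05 to 0.45), a 1.19-fold difference, with an unadjusted p of 0.0215 and an adjusted p of 0.102 in limma. Within the scan that held both groups the log2 difference was 0.20. Of all tested probes, 21.5% had a larger absolute log2 fold change.

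TSC2, the subunit that inactivates RHEB and that AKT phosphorylates, was measured by 2 probes with different transcript accessions, and these pointed in opposite directions. The brighter probe read 6.92, 6.87 and 6.94 with IL-17A and 7.13, 7.10 and 6.97 without it, so that all IL-17A arrays were below all controls. Its log2 fold change was -0.16 (95% confidence interval -0.30 to -0.02), with an unadjusted p of 0.0326 and an adjusted p of 0.127 in limma. The dimmer probe read 4.35, 4.07 and 4.27 with IL-17A and 4.08, 4.02 and 4.09 without it. On this probe IL-17A replicate 2 fell among the controls and the other two IL-17A arrays lay above them. Its log2 fold change was 0.17 (95% confidence interval -0.03 to 0.36), with an unadjusted p of 0.0867 and an adjusted p of 0.219 in limma. Within the scan that held both groups, the log2 differences were -0.15 for the brighter probe and 0.29 for the dimmer one. Averaged over both probes, the log2 fold change of TSC2 was 0.0039, so its direction rests on the probe that stands for the gene.

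The log2 signal of TSC1 minus that of the brighter TSC2 probe shifted by 0.41 between the groups, from 3.75 ± 0.22 (SD, n = 3) without IL-17A to 4.16 ± 0.10 with it. It was 4.10, 4.27 and 4.10 on the IL-17A arrays and 3.57, 3.68 and 4.00 on the control arrays, with no overlap, and within the scan that held both groups the shift was 0.35. With the dimmer TSC2 probe in place of the brighter one the shift was 0.09, the groups overlapped, and within that scan it was -0.08. The pair was chosen after its values were seen. TSC1 lay above all controls and the brighter TSC2 probe below them, so their difference could not have overlapped and adds nothing to those values.

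MTOR, the kinase of both complexes, read 7.997, 7.642 and 7.825 with IL-17A and 7.995, 7.873 and 7.862 without it. IL-17A replicate 1 was as high as the highest control, and IL-17A replicate 2 was the lowest array. The group means gave a log2 fold change of -0.09 (95% confidence interval -0.33 to 0.16), with an adjusted p of 0.573 in limma, and within the scan that held both groups it was 0.09.

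RICTOR, which defines mTORC2, read 9.34, 9.41 and 9.37 with IL-17A and 9.17, 9.25 and 9.24 without it. The groups did not overlap and the arrays of each group lay close together. The log2 fold change was 0.16 (95% confidence interval 0.05 to 0.26), a 1.12-fold difference, with an unadjusted p of 0.0105 and an adjusted p of 0.0728 in limma. Within the scan that held both groups the log2 difference was 0.13.

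RPTOR, which defines mTORC1 and recruits its substrates, read 10.41, 10.52 and 10.42 with IL-17A and 10.48, 10.45 and 10.52 without it. The groups overlapped, and the log2 fold change was -0.04 (95% confidence interval -0.16 to 0.08), with an adjusted p of 0.611 in limma, and within the scan that held both groups it was -0.08. The interval leaves out any difference of the size seen in TSC1. The log2 signal of RICTOR minus that of RPTOR shifted by 0.20 between the groups, a pair that was likewise chosen after its values were seen. It was -1.06, -1.11 and -1.05 on the IL-17A arrays and -1.31, -1.20 and -1.29 on the control arrays, with no overlap, and within the scan that held both groups the shift was 0.20.

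RHEB, the GTPase that activates mTORC1, read 8.21, 8.43 and 8.39 with IL-17A and 8.33, 8.43 and 8.42 without it. IL-17A replicate 1 was the lowest array, and the other two IL-17A arrays lay at the level of the controls. This was a log2 fold change of -0.05 (95% confidence interval -0.23 to 0.13), with an adjusted p of 0.665 in limma, and within the scan that held both groups it was -0.18.

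EIF4EBP1, which binds the cap-binding factor EIF4E until mTORC1 phosphorylates it, read 11.07, 10.89 and 10.99 with IL-17A and 11.13, 11.07 and 10.95 without it. The groups overlapped, and the highest and the lowest array were control replicate 1 and IL-17A replicate 2. Between the groups, the log2 fold change was -0.07 (95% confidence interval -0.24 to 0.11), with an adjusted p of 0.542 in limma, and within the scan that held both groups it was 0.02.

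**Figure D2:**
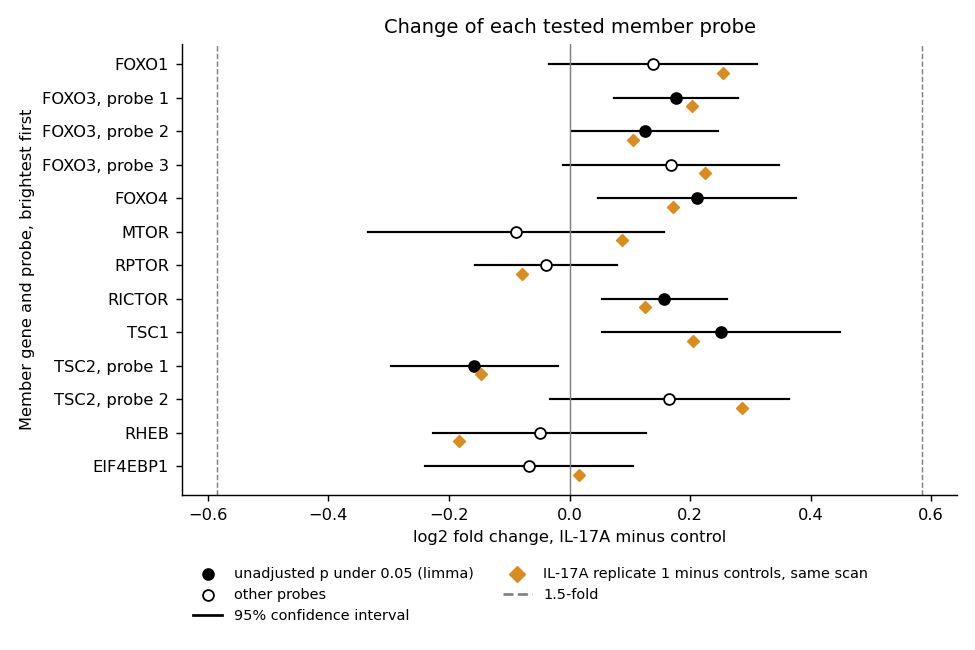
The horizontal axis gives the log2 fold change (IL-17A minus control) of each of the 13 tested probes with its 95% confidence interval, filled where the unadjusted p of limma was under 0.05, and diamonds give the difference between IL-17A replicate 1 and the 3 controls of the same scan. All points lie well inside the dashed lines of a 1.5-fold change, the 3 FOXO3 probes lie on the same side of 0 and the 2 TSC2 probes on opposite sides, and the diamonds of MTOR and EIF4EBP1 cross to the other side.

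Other genes of the pathway were taken from 6 lists with 124 genes in all, of which 117 had a tested probe. The lists were written with earlier results of these data known, so their shares of called genes are not an independent test. Across the lists, 13 genes (11.1%) had an adjusted p under 0.05, 10 of them higher and 3 lower with IL-17A, against 4.37% higher and 3.48% lower among all named genes. The list genes with an adjusted p under 0.05 numbered 0 with the replicate number as a block, 0 with the scan as a block, and 0 to 8 when a single array was left out. The calls over all tested probes were lost alike, from 1818 to 4 with the replicate number as a block, to 48 with the scan as a block, and to between 2 and 983 with an array left out.

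Among the AKT genes and the genes upstream of them, none of the 15 tested had an adjusted p under 0.05. Their log2 fold changes had a median of 0.02. Of all named genes, 16.9% were higher and 14.8% lower at an unadjusted p under 0.05 in limma. Of the 15 genes of this list, 3 were higher and 1 was lower at that threshold. These were the catalytic and regulatory PI3K subunits PIK3CA (log2 fold change 0.10, adjusted p = 0.128 in limma) and PIK3R1 (0.10, adjusted p = 0.147), AKT2 (0.13, adjusted p = 0.154, and 0.09 within the scan that held both groups), and PDPK1, which phosphorylates AKT (-0.11, adjusted p = 0.0979). AKT2 had 3 tested probes that did not point the same way, and the dimmest gave a log2 fold change of -0.26 (adjusted p = 0.0866 in limma). AKT1 gave a log2 fold change of -0.16 with overlapping groups (adjusted p = 0.232 in limma), and -0.07 within the scan that held both groups.

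Among the other subunits of the mTOR and TSC complexes and their assembly factors, 2 of 9 tested genes passed the adjusted threshold, in opposite directions. Of all named genes, 7.85% passed it. TBC1D7, the third subunit of the TSC complex, read 9.88, 9.81 and 9.84 with IL-17A and 9.53, 9.53 and 9.56 without it. The groups lay far apart for the spread within them, at a log2 fold change of 0.31, a 1.24-fold difference (adjusted p = 0.0313 in limma). Its second probe gave 0.21 (adjusted p = 0.0495 in limma), and within the scan that held both groups the brighter probe gave 0.35. MLST8, a subunit of both mTOR complexes, read 9.20, 9.13 and 9.15 with IL-17A and 9.49, 9.45 and 9.37 without it. All IL-17A arrays were below all controls, at a log2 fold change of -0.27, a 1.21-fold difference (adjusted p = 0.0377 in limma), which was -0.23 within the scan that held both groups. The dimmer MLST8 probe gave -0.04 (adjusted p = 0.719). DEPTOR, an inhibitor of both complexes, gave 0.02 (adjusted p = 0.828), and 0.06 within that scan. The mTORC2 subunit PRR5 gave -0.30 with overlapping groups (adjusted p = 0.226), but -0.03 within that scan. The assembly factor TTI1 gave -0.06 (adjusted p = 0.286), but 0.16 on its dimmer probe (adjusted p = 0.313).

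Of 30 tested genes that pass amino acid and energy signals to mTORC1, 7 were higher and 1 lower at an unadjusted p under 0.05. Of all named genes, 16.9% were higher and 14.8% lower at that threshold. In the list, 1 gene had an adjusted p under 0.05, against 7.85% of all named genes. The 1 gene was DDIT4, an inhibitor of mTORC1 that is induced by stress, which read 10.40, 10.32 and 10.35 with IL-17A and 10.11, 10.10 and 10.13 without it. The groups did not overlap, at a log2 fold change of 0.25, a 1.19-fold difference (adjusted p = 0.0334 in limma), and the log2 difference was 0.29 within the scan that held both groups. FNIP1, a partner of folliculin, gave 0.35 (adjusted p = 0.0593 in limma). The sestrin SESN3 gave 0.17 (adjusted p = 0.0602) and the GTPase RRAGD gave 0.22 (adjusted p = 0.0659). Both SESN3 and RRAGD were dim, with control means of 4.24 and 4.17. Under other processing their log2 fold changes fell to as little as 0.015 and 0.054.

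Of 20 tested genes of translation and other mTOR outputs, none had an adjusted p under 0.05, against 7.85% of all named genes. The S6 kinase gene RPS6KB2 came closest (log2 fold change -0.23, adjusted p = 0.0501 in limma), while the other S6 kinase gene, RPS6KB1, gave 0.03 (adjusted p = 0.703), and -0.02 within the scan that held both groups. The lipid synthesis factor SREBF1 gave 0.19 (adjusted p = 0.0685), but -0.18 on its dimmer probe (adjusted p = 0.144). The initiation factor EIF4B gave 0.11 (adjusted p = 0.110), and 0.28 and 0.11 on its dimmer probes. EIF4EBP2, a relative of EIF4EBP1, gave 0.16 on its brighter probe (adjusted p = 0.158) and -0.17 on its dimmer one (adjusted p = 0.0637). EIF4E, the cap-binding factor that these repressors hold, gave -0.11 (adjusted p = 0.169), but 0.07 and 0.02 on its dimmer probes. SGK1, a kinase that mTORC2 activates, was dim and spread widely, between 3.11 and 3.80 with IL-17A and between 3.39 and 4.43 without it, at a log2 fold change of -0.55 (adjusted p = 0.289), but -0.10 within the scan that held both groups.

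Of 13 tested genes that regulate the FOXO factors, 1 was higher and 4 were lower at an unadjusted p under 0.05. Of all named genes, 16.9% were higher and 14.8% lower at that threshold. In the list, 1 gene had an adjusted p under 0.05, against 7.85% of all named genes. The 1 gene was MDM2, a ubiquitin ligase of p53 that also acts on FOXO proteins, at a log2 fold change of -0.21 (adjusted p = 0.0470 in limma), while its dimmer probes gave 0.08 and -0.07. The methyltransferase PRMT1 gave -0.27 (adjusted p = 0.0902), the acetyltransferase EP300 gave -0.26 (adjusted p = 0.0912, and -0.17 within the scan that held both groups) and the deacetylase SIRT1 gave -0.10 (adjusted p = 0.130).

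Of 30 tested genes known as FOXO targets, 9 (30%) had an adjusted p under 0.05, 8 of them higher and 1 lower with IL-17A, against 7.85%, 4.37% higher and 3.48% lower, of all named genes. Of these calls 0 were left without normalization, with the replicate number or the scan as a block, and without any 1 array but control replicate 3, without which 5 were higher and 1 lower. Of the 30 genes, 15 were higher and 15 lower by sign, and the median log2 fold change was 0.02. This list, too, was written with earlier results of these data known, so its share of calls is not an independent test. TXNIP, an inhibitor of thioredoxin and of glucose uptake, was the 1 gene of all 6 lists whose brightest tested probe passed both a 1.5-fold change and an unadjusted p of 0.05. It read 12.771, 12.826 and 12.782 with IL-17A and 12.030, 12.104 and 12.226 without it, with a gap between the groups larger than the spread within them. The log2 fold change was 0.67, a 1.59-fold difference (adjusted p = 0.0251 in limma), and the log2 difference was 0.65 within the scan that held both groups. BBC3, which encodes the pro-apoptotic protein PUMA, gave 0.41 (adjusted p = 0.0252 in limma), the ubiquitin ligase subunit FBXO32 gave 0.49 (adjusted p = 0.0327) and the autophagy gene GABARAPL1 gave 0.27 (adjusted p = 0.0327). KLF2, a factor of lymphocyte quiescence, went the other way, at -0.27 (adjusted p = 0.0327). Many of these genes are also driven by other factors. TXNIP and BBC3 answer to glucose and to p53, so the list does not measure the FOXO factors alone.

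The other 4 FOXO targets with an adjusted p under 0.05 are named after their values were seen. They were the chemokine receptor CXCR4 (log2 fold change 0.30, adjusted p = 0.0367 in limma), the PI3K inhibitor PIK3IP1 (0.51, adjusted p = 0.0423), the insulin receptor INSR (0.18, adjusted p = 0.0437) and the cyclin CCNG2 (0.23, adjusted p = 0.0489). PIK3IP1 was dim, at a mean of 4.48 with IL-17A and 3.97 without it. CDKN1B, which encodes the cell cycle inhibitor p27, read 10.04, 10.11 and 10.07 with IL-17A and 9.72, 9.79 and 9.92 without it. The groups did not overlap, and control replicate 3 was the closest to the IL-17A arrays. The gene gave a log2 fold change of 0.26 (adjusted p = 0.0596 in limma), and 0.23 within the scan that held both groups. The dimmer CDKN1B probe gave 0.73 and also passed both a 1.5-fold change and an unadjusted p of 0.05 (unadjusted p = 0.0179, adjusted p = 0.0932 in limma). Its controls spread widely, with a mean of 4.76 and an SD of 0.44, against 5.50 and 0.12 with IL-17A. By western blot, the study saw no effect of IL-17A on the protein p27 in SU-DHL-2.

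**Figure D3:**
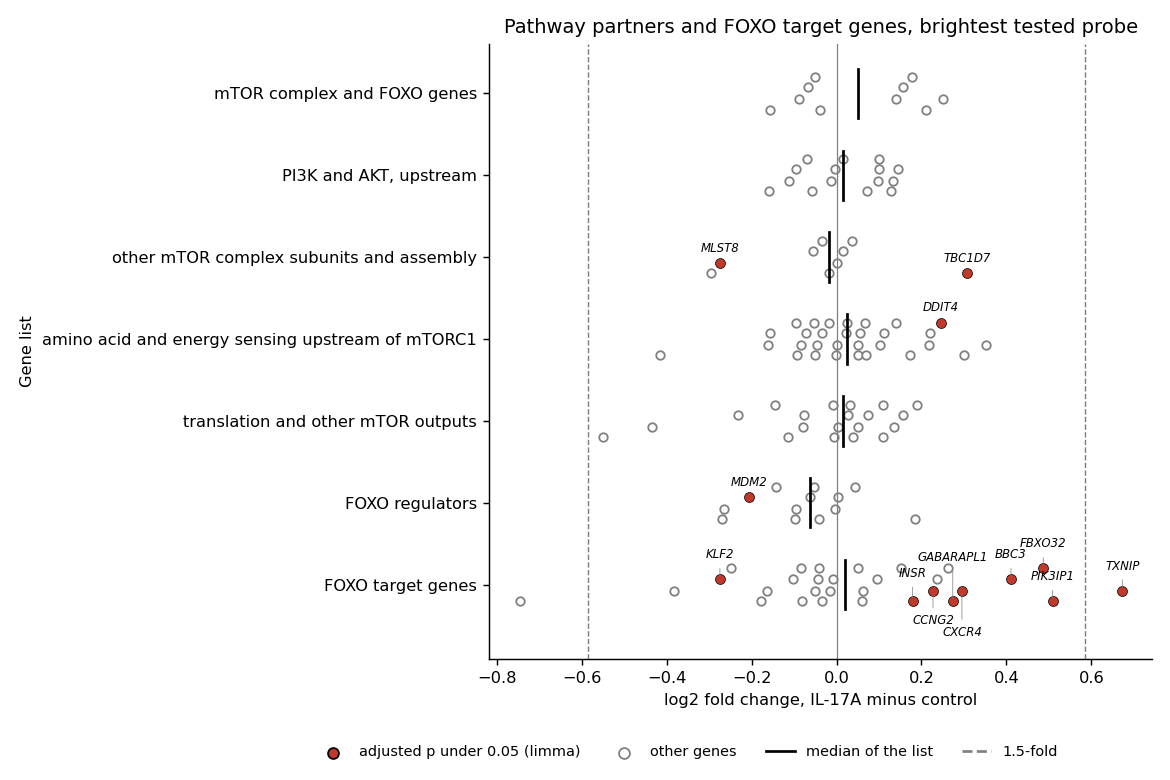
Each point is the log2 fold change (IL-17A minus control, horizontal axis) of 1 gene at its brightest tested probe, sorted by list on the vertical axis, with genes of an adjusted p under 0.05 filled and named and the median of each list as a bar. The 10 genes downstream of AKT hold no filled point, the FOXO targets hold 9 of the 13 filled points, and TXNIP alone of these lies beyond the dashed line of a 1.5-fold change. The open point beyond the other dashed line is S1PR1, which was well above background on only 1 of the 3 IL-17A arrays and did not pass the test (adjusted p = 0.18 in limma). It is named after its values were seen.

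FOXO factors bind a core of the letters TGTTTAC, or GTAAACA when read on the other strand. It was searched on both strands in the RefSeq promoters (GRCh38.p14, 250 bases before to 50 after a gene's start), of which 27305 genes had at least 1, and it was present for 1145 genes (4.19%). A promoter was given for 9 of the 10 genes downstream of AKT and for 25 of the 30 FOXO targets. The core was present for FOXO4 alone among the 9 (11.1%) and for TXNIP, PIK3IP1 and BCL2L11 among the 25 (12.0%). In the other lists it was present for PIK3CA upstream of AKT (6.67% of that list), STK11 of energy sensing (3.45%) and LARP1 of translation (5.0%), and for no other subunit of the mTOR complexes and no FOXO regulator. A second motif, CAAAACAA or TTGTTTTG on the other strand, was present for 569 genes (2.08%) and for none of the 9. It was present for the FOXO target IRS2 and for PIK3CD and PIK3CG upstream of AKT. These 4 stretches are shown because they join FOXO4, a gene of the set, to the FOXO targets whose promoter holds the same letters, with the core in capitals and the strand of the gene read 5′ to 3′.
FOXO4, chrX:71095863-71095891, plus strand, core from 23 bases after the start: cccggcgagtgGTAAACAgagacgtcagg
TXNIP, chr1:145996686-145996714, minus strand, core from 124 bases before the start: tcgggctcctgGTAAACAaggaccgggca
PIK3IP1, chr22:31292455-31292483, minus strand, core from 16 bases after the start: taaagagaggcTGTTTACcagaacagcat
BCL2L11, chr2:111120680-111120708, plus strand, core from 223 bases before the start: gagttactccgGTAAACAcgccagggacg
Of these 4 genes, TXNIP and PIK3IP1 had an adjusted p under 0.05 and FOXO4 did not (adjusted p = 0.0997 in limma). BCL2L11, which encodes the pro-apoptotic protein BIM, gave a log2 fold change of 0.06 (adjusted p = 0.594 in limma), and 0.04 within the scan that held both groups. The dimmer BCL2L11 probes gave -0.10 and -0.29 (adjusted p = 0.174 and 0.0614 in limma). A match of letters is not a measured binding site, and no binding was measured in these samples.

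The values of the 10 genes were computed again under 19 other ways of processing or with fewer arrays. Each gene was taken at its brightest probe or as the mean over its probes. FOXO3 had an unadjusted p under 0.05 in all 19, with log2 fold changes of 0.14 to 0.21, and RICTOR in 17, with log2 fold changes of 0.11 to 0.19. TSC1 and FOXO4 had one in 14 each and kept their sign in all 19, with log2 fold changes of 0.19 to 0.33 for TSC1 and of 0.07 to 0.26 for FOXO4. TSC2 had one in 7, FOXO1 in 2 and RHEB in 1. Both of FOXO1 rest on the same difference, that between IL-17A replicate 1 and the controls. The 19 reuse the same arrays, so these counts are not independent tests. MTOR, RPTOR and EIF4EBP1 had none, and RPTOR kept its sign in all 19 but MTOR in 16 and EIF4EBP1 in 17. With the scan as a block, which rests on IL-17A replicate 1 and the controls, FOXO1, FOXO3 and RHEB had an unadjusted p under 0.05. RICTOR, TSC1, FOXO4 and TSC2 did not. With that block, 23.3% of all tested probes had an unadjusted p under 0.05. With a variance trend over intensity, which borrows the spread from probes of the same brightness, FOXO3, RICTOR and TSC1 had an adjusted p under 0.05, where 16.1% of all tested probes did.

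**Figure D4:**
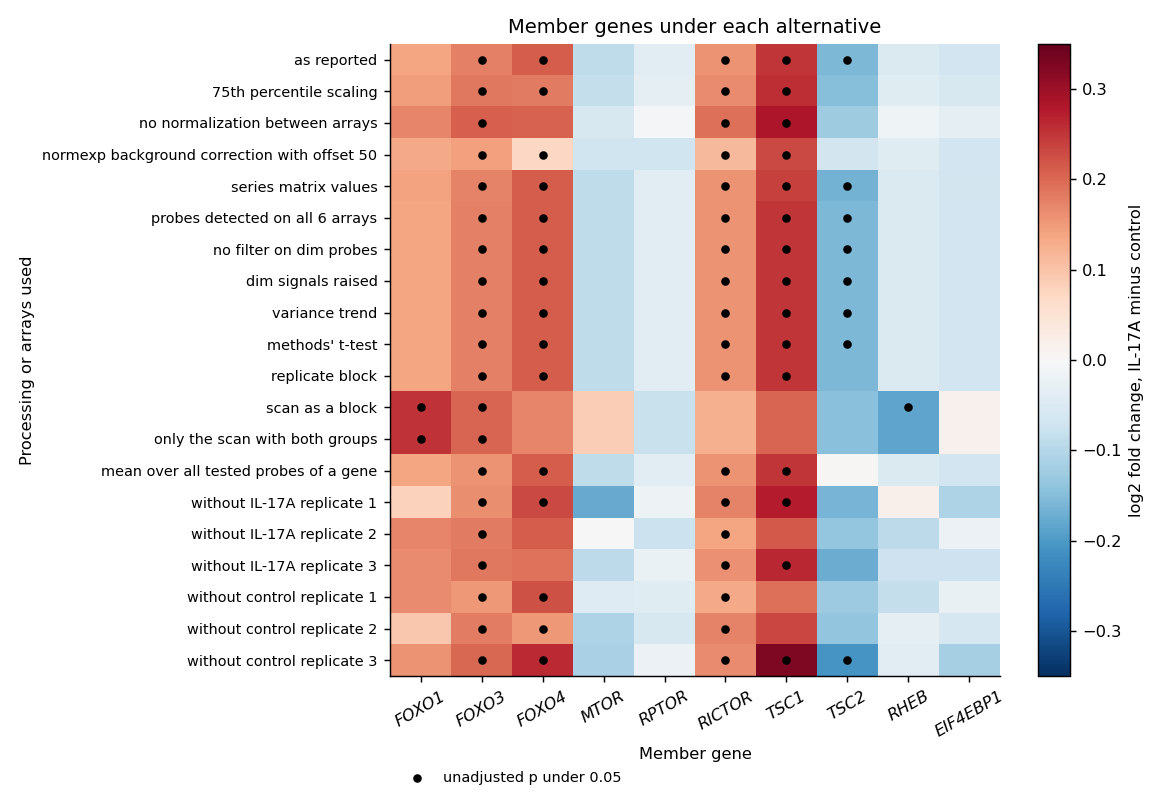
Each cell gives by its colour the log2 fold change (IL-17A minus control) of 1 of the 10 genes on the horizontal axis under the processing or the choice of arrays on the vertical axis, with a dot where the unadjusted p was under 0.05. Each gene is taken at its brightest probe or as the mean over its probes. The column of FOXO3 has a dot in every line, those of FOXO4, RICTOR and TSC1 keep 1 colour throughout, and MTOR and EIF4EBP1 change colour in the lines that use the scan.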

How the data were processed

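RNA of 3 samples with IL-17A and 3 controls was measured on 1-colour arrays, and groups followed the sample titles. The deposited files of each array hold, from Agilent Feature Extraction 11.0.1.1 per the labels, a background-subtracted intensity per spot (main values), median intensities of spot and background (for normexp), and flags of 0 or 1. The authors also deposited log2 values of the whole series, quantile normalized, which served as an alternative.

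Control spots and 61 values marked non-uniform were left out, intensities were raised to at least 1, replicate spots were averaged as log2 values, and arrays were quantile normalized as in the study's methods. A probe counted as detected when positive, significant and well above background. The methods name the flag without its columns, so this reading is a choice. The 23945 probes (70.2%) detected on at least 3 of 6 arrays were tested, and between 23580 and 24079 probes were detected per array. No spot was saturated. With so few arrays, the precision of each value is limited. Probes were named through RefSeq accessions with gene names of GRCh38.p14, and a gene was represented by its brightest tested probe.

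Groups were compared with two-sided tests of limma 3.58.1 in R 4.3.3 and no covariates, and p-values were adjusted over all tested probes by the Benjamini-Hochberg method. An exact permutation test of 3 arrays against 3 cannot give a p below 0.1. The script was tested on simulated data. No pairing by replicate number was seen. Deviations of same-numbered arrays from their group means correlated at -0.0871, -0.0022 and -0.0466 across probes. As IL-17A replicate 1 was read in another scan than the other IL-17A arrays, these correlations cannot exclude a pairing. The 10 genes and the lists were chosen with earlier results of these data known. The lists were written from general knowledge, and genes without a probe were EIF4EBP3, FOXO6 and LYZ. Named were all 10 genes with every probe, of each list the genes past a 1.5-fold change and an unadjusted p of 0.05 plus the 4 with the lowest p, and a fixed set of partners (AKT1, AKT2, MLST8, DEPTOR, RPS6KB1, EIF4E, EIF4EBP2, SGK1, DDIT4 and CDKN1B). Some partners are not reported here. The 4 other FOXO targets called, BCL2L11 and the compared pairs were named after their values were seen. Alternatives were 75th percentile scaling, no normalization, normexp with an offset of 50, the deposited log2 values, other detection filters, a floor under dim signals at the lowest one well above background, a variance trend, the methods' t-test, replicate and scan blocks, the mean over probes, and each array left out.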

Additional observations from a re-analysis of the deposited data

How the results depend on the processing

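Over the 10 genes and 19 alternatives, 7 log2 fold changes changed sign and 5 newly passed an adjusted p of 0.05. As none passed it at first, none could be lost. MTOR gave a log2 fold change of 0.086 with the scan as a block and within the scan that held both groups, and between -0.18 and 0.00072 with an array left out (the latter without IL-17A replicate 2), while EIF4EBP1 gave 0.016 with the scan as a block and within it. RHEB gave between -0.093 and 0.017 with an array left out (the latter without IL-17A replicate 1), and TSC2 gave 0.0039 as the mean over its probes. The cause was not tested. Of the 10 genes, the number with an adjusted p under 0.05 was 0. It became 1 with probes detected on all 6 arrays (FOXO3), 1 with the mean over probes (FOXO3) and 3 with a variance trend (FOXO3, RICTOR and TSC1). Of all tested probes, 7.59% had one, 11.2% of those detected on all 6 arrays and 16.1% with a variance trend. The number with an unadjusted p under 0.05 was 5, and it became 3 without normalization, 3 with the scan as a block, and 2 to 5 with an array left out. Of all tested probes, 31.3% had one, 19.8% without normalization, 23.3% with the scan as a block and 21.1% to 31.3% with an array left out. In the replicate block the number was 4 of the 10 genes, without TSC2, against 26.6% of all tested probes. None of the 10 genes had an adjusted p under 0.05 there. No gene of the 10 passed a 1.5-fold change with an unadjusted p under 0.05 in any of the 19. The list genes with an adjusted p under 0.05 numbered 13, and they became 21 with a variance trend, 0 without normalization, 0 with the replicate block, 0 with the scan as a block, 0 within the scan that held both groups and 0 to 8 with an array left out (8 without control replicate 3 and 0 without any other array). Over all probes, those past a 1.5-fold change and an unadjusted p of 0.05 numbered 522, and they became 15 with normexp, 301 with probes detected on all 6 arrays, 978 without a filter, 802 within the scan that held both groups, 527 in the replicate block, and 409 to 658 with an array left out. Of the probes with an adjusted p under 0.05, 58.3% were higher with IL-17A, but 49.4% after 75th percentile scaling, 45.7% without normalization, 29.2% of 48 with the scan as a block and 29.6% of 27 within the scan that held both groups. The differences of the 10 genes are small, and the number of arrays limits what can be told apart.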
